A study of Mus musculus with 8 samples.

Results

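The chemokine ligands and chemokine receptors of mouse bone marrow MSCs are described here, without *Cxcl12*. MSCs are mesenchymal stem/stromal cells, which stick to plastic and are known as precursors of the skeletal and fat lineages. Members were all genes of the expression table whose symbol starts with Ccl, Cxcl, Cx3cl or Xcl (ligands), or with Ccr, Cxcr, Cx3cr, Xcr or Ackr (receptors), followed by a number. This rule, which used no measured value, found 60 of 24346 genes, of which 38 were ligands and 22 were receptors. RNA was sequenced from 8 libraries in 4 groups, with 2 libraries in each group: WT and *Dnmt3l* KO MSCs, each undifferentiated or differentiating. All mice were on the C57BL/6 background, and all cells were at passage 4. Undifferentiated cells grew in alphaMEM with 20% serum. Differentiating cells had spent 3 days in osteogenic induction medium, which had 10% serum, 0.1 μM dexamethasone, 10 mM β-glycerophosphate and L-ascorbic acid 2-phosphate at 50 μM. The effects of the lower serum, of the steroid and of the other additives therefore cannot be told apart. The KO cells carried the tmEnls allele of *Dnmt3l*, a knockout of the whole animal and not only of MSCs, and the WT cells came from littermates. Per the methods of the study, cells of several adult female mice were mixed by genotype and passed through a negative selection for CD11b and CD45, surface proteins of leukocytes. *Dnmt3l* encodes a cofactor of DNA methyltransferases that has no catalytic activity of its own. Whether replicate libraries stem from different mixes is not in the labels, so p-values measure the spread between these libraries, which may be technical.

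Chemokines are small secreted proteins that guide migrating cells along a concentration gradient. They are named by the spacing of their first cysteines (CC, CXC, CX3C and XC), and they act through receptors coupled to inhibitory G proteins. The atypical receptors (Ackr) bind chemokines without that coupling, and most take them up for degradation, which lowers the amount outside the cell. In bone marrow, stromal cells release chemokines that hold blood-forming cells in place or let neutrophils and monocytes leave, and glucocorticoids such as dexamethasone are known to lower many inflammatory chemokines.

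Values are RPKM, which divides a gene's reads by transcript length and by library size, so levels can be set side by side between genes. Of the 60 members, 9 were listed at 0 in all 8 libraries, 21 others had a mean under 0.1 RPKM, and 30 (20 ligands and 10 receptors) reached this mean and were tested. A mean of at least 1 RPKM in at least 1 group was found for 18 members. *Ccl7* alone made up 33.2% to 39.9% of the summed RPKM of the members in each library. The sum of all members was 401 ± 17.0 RPKM in undifferentiated WT, 237 ± 11.2 in differentiating WT, 490 ± 6.90 in undifferentiated KO and 223 ± 14.9 in differentiating KO MSCs (SD, n = 2 each). Differentiating cells of both genotypes thus had the lower sum, and the groups of the 2 states did not overlap. The differences below are on the scale of log2(RPKM + 0.1), which understates the change of low genes. A gene was called when its difference was above 1 or below -1 and its adjusted p (limma, with Benjamini-Hochberg adjustment over 15342 genes) was under 0.05.

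**Figure D1:**
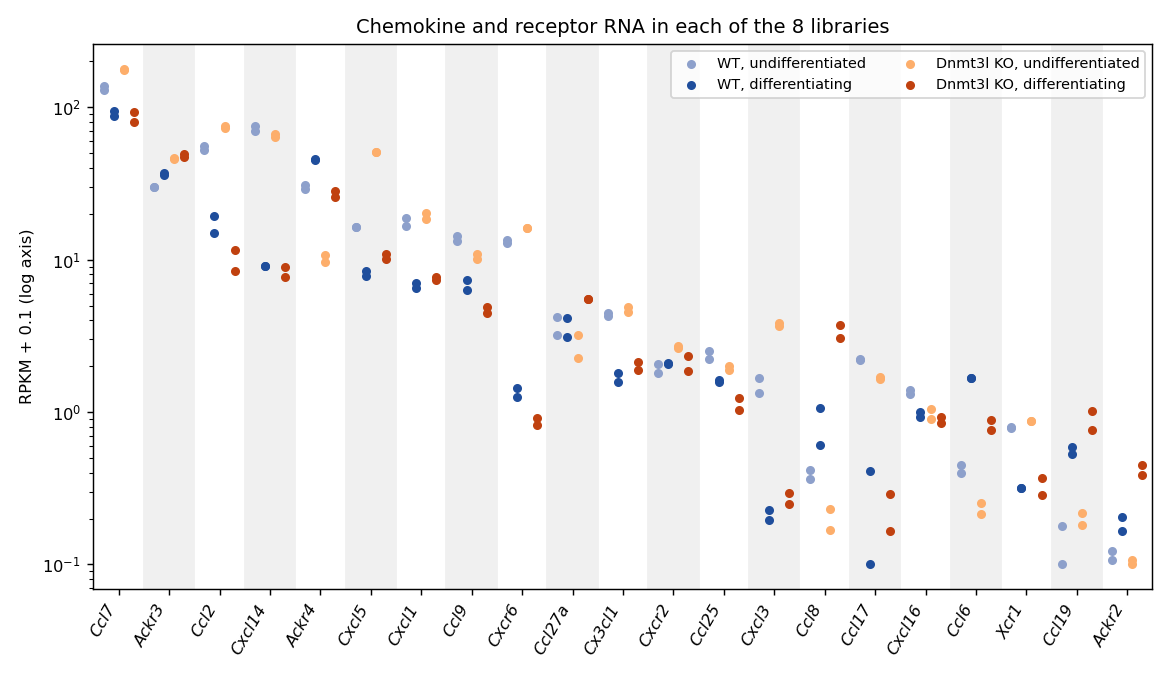
RPKM + 0.1 on a log axis for the 21 members that reached a mean of 1 RPKM in a group or were called, ordered by their mean over all libraries, with 1 point per library and 1 color per group. *Ccl7* is highest at 80.0 to 179 RPKM, and *Ackr2* is lowest at 0 to 0.352 RPKM.

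Facts of the whole series that touch these values are few. The depth, as read off the spacing of the lowest values, was 48.0 to 67.0 M scaled reads per library, with differentiating WT replicate 1 the deepest. *Dnmt3l* was at 1.56 and 1.09 RPKM in undifferentiated WT and 0.845 and 0.830 RPKM in differentiating WT, and was listed at 0 in the 4 KO libraries. Both undifferentiated KO libraries list *Actb* at 0, and the other 6 libraries list *Eef1a1* at 0, so a listed 0 can be a failed estimate. The 12 markers of mesenchymal stromal cells summed to 2137 to 3807 RPKM per library. Among 17 leukocyte markers, *Cd3e* and *S100a9* were listed at 0 in all libraries. *Ptprc*, which encodes CD45, was at 0 to 0.127 RPKM, and *Itgam*, which encodes CD11b, was at 0.0180 to 0.356 RPKM. The leukocyte markers summed to 20.3 and 21.1 RPKM in undifferentiated WT, 38.2 and 44.1 in differentiating WT, 9.82 and 8.89 in undifferentiated KO and 16.7 and 17.4 RPKM in differentiating KO libraries. In bulk RNA, fewer cells of a type and less RNA per cell cannot be told apart.

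The study compared genotypes in each state and states in each genotype. In undifferentiated MSCs, KO cells had 3 members called, with *Cxcl5* and *Cxcl3* higher and *Ackr4* lower, where 1.7% of all genes tested were called (0.613% higher and 1.09% lower). In differentiating MSCs, 3 members were again called between genotypes, with *Ccl8* and *Ackr2* higher and *Ccl6* lower in KO cells, where 3.3% of all genes tested were called (1.36% higher and 1.95% lower). *Ackr2* reached the minimum for the test only through the differentiating KO libraries. No member was called in both states, though with 0.01 in place of 0.1 added *Ccl6* was called in both (-1.23 before induction) and so was *Ccl8*, lower before (-1.52, adjusted p = 0.030) and higher after induction. The median difference of the tested members was 0.13 in undifferentiated and 0.01 in differentiating cells, where that of all genes was 0.00 and -0.01. By the adjusted p alone, 10 members passed in undifferentiated cells (6 higher and 4 lower in KO) and 11 in differentiating cells (5 higher and 6 lower), where 32.2% and 40.7% of all genes passed.

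**Figure D2:**
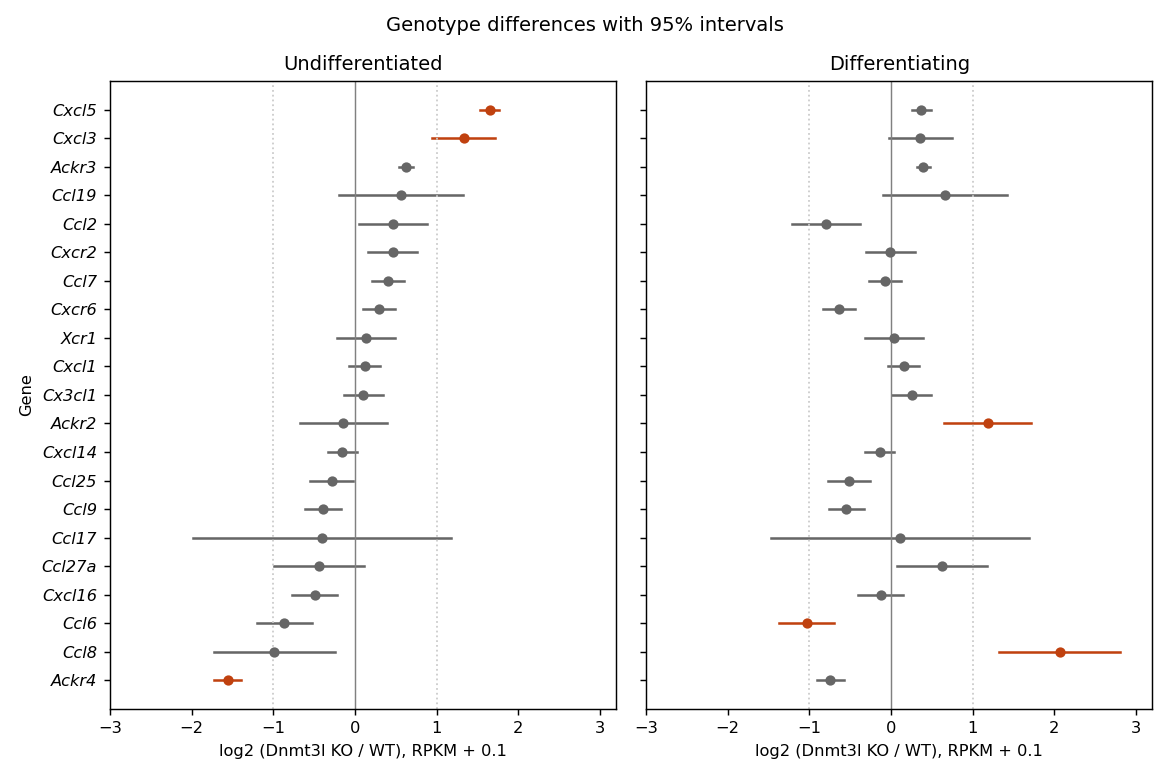
Difference between *Dnmt3l* KO and WT on the log2(RPKM + 0.1) scale for the 21 described members, with the point as the estimate and the line as its 95% interval, in undifferentiated (left) and differentiating (right) cells. Called members are red and dotted lines mark differences of -1 and 1. *Cxcl5* at 1.65 is highest on the left and *Ccl8* at 2.07 is highest on the right.

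With osteogenic induction, many ligands fell in both genotypes. In WT cells, 10 members fell and 3 rose, where 4.63% of all genes tested fell and 9.69% rose, 14.3% in all. In KO cells, 11 members fell and 6 rose, where 9.87% of all genes fell and 13.0% rose, 22.9% in all. A member could be called only if it was among the 30 tested, so these counts leave out 30 members. The median change of the tested members was 0.01 in WT and -0.24 in KO cells, against 0.00 for all genes in each. The 10 members that fell in WT cells (*Ccl2*, *Ccl9*, *Ccl17*, *Cx3cl1*, *Cxcl1*, *Cxcl3*, *Cxcl5*, *Cxcl14*, *Cxcr6* and *Xcr1*) also fell in KO cells, where *Ccl7* was the other one. By the adjusted p alone, 19 members passed in WT and 22 in KO cells, where 64.4% and 72.9% of all genes passed. With 1 in place of 0.1 added to each value, 7 members were called in WT and 11 in KO cells, and the calls lost were those of *Ccl6*, *Ccl19* and *Xcr1* in both genotypes, *Ccl8*, *Ccl9* and *Cxcl5* in WT, and *Cx3cl1*, *Ccl27a* and *Ackr2* in KO cells. The difference between the responses of the 2 genotypes, tested as an interaction, was called for 5 members, where 6.17% of all genes tested were called (2.76% with the more positive and 3.42% with the more negative response in KO cells). Of these 5, *Cxcl5* and *Ccl2* had the more negative response in KO cells, and *Ccl8*, *Ackr2* and *Ccl27a* had the more positive one. *Ackr2*, also among the 6 that rose in KO cells, was tested only through the differentiating KO libraries. Library medians lay 0.10 (WT) and 0.08 (KO) higher on the log2 scale in differentiating cells, and centring them ended the calls of *Ccl8* in WT and *Ccl27a* in KO cells.

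**Figure D3:**
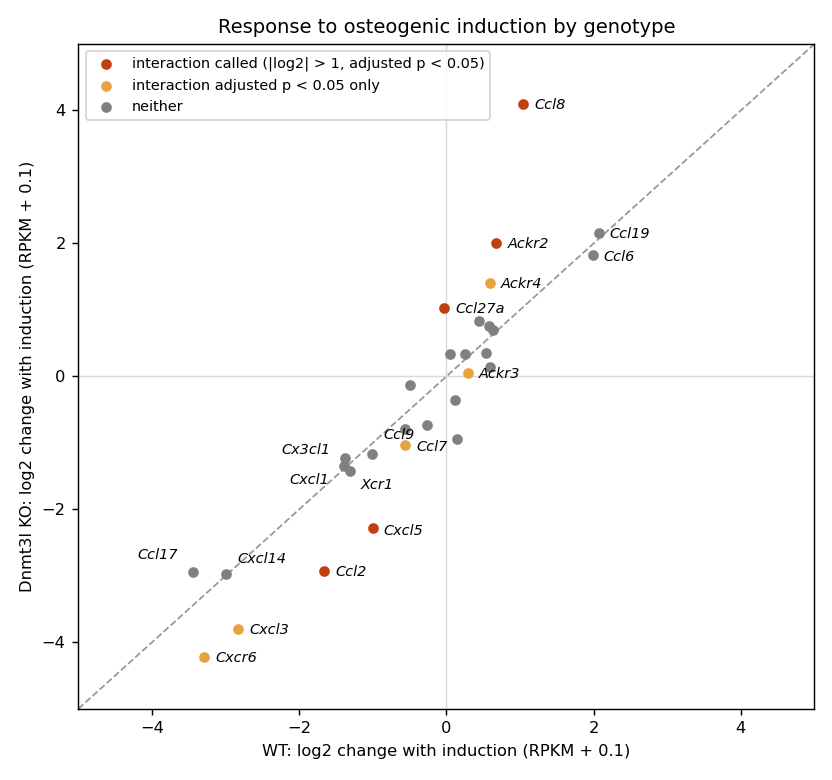
Change with osteogenic induction on the log2(RPKM + 0.1) scale in WT (horizontal axis) and *Dnmt3l* KO (vertical axis) for the 30 tested members, with the dashed line marking an equal response. Red points (*Ccl8*, *Ackr2*, *Ccl27a*, *Ccl2* and *Cxcl5*) have a called interaction, and *Ccl8* lies farthest above the line, at 1.05 in WT and 4.10 in KO.

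The CXC chemokines with an ELR motif (Glu-Leu-Arg) draw neutrophils through the receptor encoded by *Cxcr2*, and 5 of them are members: *Cxcl5*, *Cxcl3*, *Cxcl15*, *Cxcl1* and *Cxcl2*, in this order along 147 kb of chromosome 5. *Cxcl5* (chr5:90759360-90761624 on mm10, plus strand) was at 16.2 and 16.2 RPKM in undifferentiated WT and 51.1 and 50.9 RPKM in undifferentiated KO libraries. After induction it was at 7.75 and 8.33 RPKM in WT and 10.8 and 10.1 RPKM in KO libraries. KO cells were thus 3.15-fold higher before induction, where the libraries of a genotype differed by under 1 RPKM, and 1.30-fold higher after it, and the genotypes did not overlap in either state. The genotype difference was 1.65 (SE 0.05, adjusted p = 4.7e-05) before and 0.37 (SE 0.05, adjusted p = 0.0029) after induction, and the change between them was -1.28 (SE 0.07, adjusted p = 0.00038). With induction *Cxcl5* fell 2.01-fold in WT (adjusted p = 1.5e-05), just past the limit, and 4.89-fold in KO cells (-2.28, adjusted p = 4.9e-07). Without differentiating WT replicate 1, the WT change was -0.95 and was no longer called.

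*Cxcl3* (chr5:90786103-90789600, plus strand), another neutrophil attractant, had a lower level. It was at 1.57 and 1.24 RPKM in undifferentiated WT, 3.59 and 3.76 in undifferentiated KO, 0.128 and 0.0954 in differentiating WT and 0.195 and 0.149 RPKM in differentiating KO libraries. KO cells were 2.61-fold higher before induction, with a difference of 1.33 (SE 0.16, adjusted p = 0.0027), and the genotypes did not overlap in either state. After induction the genotype difference was 0.36 (adjusted p = 0.12). *Cxcl3* fell 12.6-fold in WT and 21.4-fold in KO cells (-2.83 and -3.80, adjusted p = 2.5e-05 and 4.3e-06), and the interaction of -0.97 (adjusted p = 0.017) stayed inside the limit of 1. It passed that limit when undifferentiated WT replicate 1 (-1.13), differentiating WT replicate 2 (-1.08) or differentiating KO replicate 1 (-1.10) was left out. With 1 in place of 0.1 added to each value, the genotype difference of *Cxcl3* was 0.96 and was not called.

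*Cxcl1* (chr5:90891241-90893115, plus strand), which lies 131.9 kb from the start of *Cxcl5*, had no call between genotypes. It was at 16.5 and 18.7 RPKM in undifferentiated WT and 18.3 and 20.0 RPKM in undifferentiated KO libraries, which overlapped, and at 6.41 and 6.91 RPKM in differentiating WT and 7.59 and 7.25 RPKM in differentiating KO libraries. The genotype difference was 0.12 before induction (95% interval -0.07 to 0.31, adjusted p = 0.29) and 0.15 after it (-0.04 to 0.35, adjusted p = 0.17). With induction *Cxcl1* fell 2.65-fold in WT (-1.39, adjusted p = 2.7e-05) and 2.58-fold in KO cells (-1.35, adjusted p = 1.6e-05). *Cxcl15* was at 0.0323 to 0.137 RPKM and had no call. *Cxcl2* was at 0 to 0.118 RPKM and was under the minimum for the test.

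A pair of related genes lies between *Cxcl5* and *Cxcl3* and carries symbols outside the naming rule. *Ppbp*, which encodes the neutrophil attractant also called CXCL7, starts 9.2 kb from the start of *Cxcl5*. It was at 15.7 and 17.5 RPKM in undifferentiated WT, 52.3 and 50.9 in undifferentiated KO, 0.493 and 0.377 in differentiating WT and 0.362 and 0.322 RPKM in differentiating KO libraries. Its level and its genotype difference before induction (1.63, SE 0.12, adjusted p = 0.00059) lay next to those of *Cxcl5*. After induction its level was far lower than that of *Cxcl5*, with changes of -4.97 in WT (adjusted p = 1.3e-06) and -6.87 in KO cells (adjusted p = 2.7e-07). *Pf4*, which encodes platelet factor 4 and starts 13.1 kb from the start of *Cxcl5*, differed the other way. It was at 1.01 and 0.710 RPKM in undifferentiated WT and 0.162 and 0.367 RPKM in undifferentiated KO libraries, and was called lower in KO cells at -1.44 (adjusted p = 0.037). Of 11 leukocyte markers tested, 5 were called lower and 0 higher in undifferentiated KO cells, where 1.09% and 0.613% of all genes were. *Cd14* and *Csf1r* were higher by the adjusted p alone. The part of the leukocyte markers in the result on *Pf4* was not tested.

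**Figure D4:**
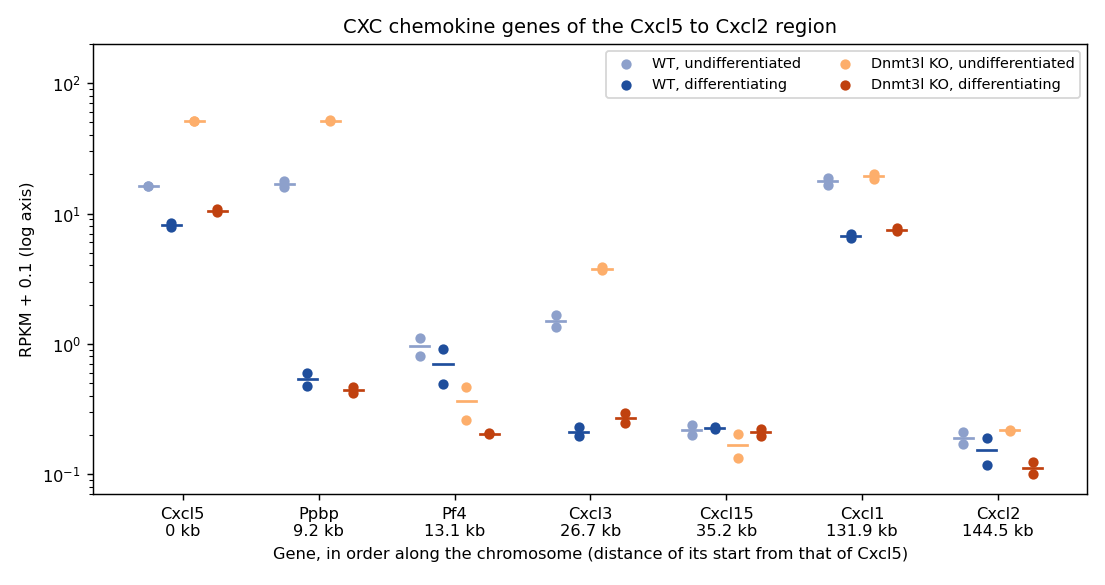
RPKM + 0.1 on a log axis for the 5 ELR CXC members and the neighbours *Ppbp* and *Pf4*, in their order along the chromosome, with points for libraries and bars for group means. The undifferentiated KO libraries stand above the undifferentiated WT libraries at *Cxcl5*, *Ppbp* and *Cxcl3*, and overlap with them at *Cxcl1*.

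Promoter sequence from RefSeq (GRCm38.p6, the mm10 build; 250 bases before to 50 bases after the start) was found for 44 of the 60 members, and for 17 of the 21 described ones. None was found for *Ccl2*, *Ccl7*, *Cxcl5* and *Cxcl16*, so these were not searched. The consensus of NF-kB, a factor that turns on inflammatory genes, was searched on both strands. It was in the window of 12 of the 44 members, against 9.55% of 27025 genes. The 12 include *Ccl1* and *Ccr6*, which were listed at 0 in all libraries. Other motifs searched were the TATA box, in 14 of the 44 (15.7% of genes), and AP-1, in 8 (8.97%). The C/EBP motif was in 22 (44.1%) and the ISRE core in 3 (3.99%), so a higher share in members was not particular to NF-kB. *Cxcl3*, *Cxcl1* and *Cxcl2* are shown because their windows hold the same 10 letters (capitals) and their levels differ widely. All are written 5′ to 3′ on the plus strand, at chr5:90786018-90786047, chr5:90891164-90891193 and chr5:90903792-90903821.
Cxcl3: gagctgcgggGGGAATTTCCccagcccggg
Cxcl1: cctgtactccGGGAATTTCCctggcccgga
Cxcl2: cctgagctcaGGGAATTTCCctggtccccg
The capitals lie at positions -73 to -64 of *Cxcl3*, -71 to -62 of *Cxcl1* and -97 to -88 of *Cxcl2*, counted from the transcript start. In each of the 3 windows a match on the other strand overlaps them, shifted by 1 base. In undifferentiated KO cells, the genes with this match were at 3.67 (*Cxcl3*), 19.1 (*Cxcl1*) and 0.116 RPKM (*Cxcl2*), and only *Cxcl3* of the 3 was called between genotypes. The glucocorticoid response element, searched on both strands, was in the window of 0 of the 44 members and of 0.0518% of genes. A full match is so rare that 0 of 44 cannot show whether members lack such sites. A match describes letters in a window and does not show binding.

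Among the other CXC ligands, *Cxcl14* was the most abundant before induction. *Cxcl14*, a ligand made by epithelia and stroma, was at 70.1 and 75.0 RPKM in undifferentiated WT, 66.4 and 63.7 in undifferentiated KO, 9.05 and 9.06 in differentiating WT and 7.64 and 8.85 RPKM in differentiating KO libraries. It was 8.01-fold lower after induction in WT and 7.89-fold lower in KO cells (-2.99 and -2.97, SE 0.07 each, adjusted p = 1.5e-06 and 7.6e-07), and the interaction was 0.02 (95% interval -0.23 to 0.27). Genotype differences of *Cxcl14* were -0.16 (95% interval -0.34 to 0.02) and -0.14 (-0.32 to 0.04). *Cxcl16*, a membrane-bound ligand that is also shed, was at 1.22 and 1.30 RPKM in undifferentiated WT and 0.746 to 0.951 RPKM in the other 6 libraries. Its lower level in undifferentiated KO cells (-0.49, adjusted p = 0.022) did not reach the fold limit. The interferon-inducible ligands *Cxcl9*, *Cxcl10* and *Cxcl11* summed to 0.157 to 0.547 RPKM per library and had no call. *Cxcl10* was at 0.376 RPKM in differentiating KO replicate 1 and was listed at 0 in replicate 2. Its interval was wide (-1.04 to 2.52 between undifferentiated genotypes).

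Of the CC ligands that draw monocytes, *Ccl7* had the highest level of all members in every library. *Ccl7* (chr11, in a group of 6 CC genes over 270 kb that also holds *Ccl2* and *Ccl8*) was at 129 and 138 RPKM in undifferentiated WT, 175 and 179 in undifferentiated KO, 87.9 and 94.1 in differentiating WT and 93.1 and 80.0 RPKM in differentiating KO libraries. KO cells were 1.32-fold higher before induction (0.40, adjusted p = 0.014) and the genotypes overlapped after it (-0.08, 95% interval -0.27 to 0.12). The change of *Ccl7* with induction was -0.56 in WT (adjusted p = 0.0013, inside the fold limit) and -1.03 in KO cells (adjusted p = 5.3e-05, called). Without differentiating KO replicate 2, the KO change was -0.92 and was no longer called.

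*Ccl2*, which encodes the monocyte attractant MCP-1, was at 52.2 and 55.6 RPKM in undifferentiated WT, 73.3 and 75.8 in undifferentiated KO, 15.0 and 19.4 in differentiating WT and 11.4 and 8.34 RPKM in differentiating KO libraries. Its genotypes did not overlap in either state, and the order of the genotypes turned over with induction. The genotype difference was 0.47 (adjusted p = 0.087) before and -0.80 (adjusted p = 0.014) after induction, and the latter was -1.02 and called without differentiating KO replicate 1. *Ccl2* fell 3.14-fold in WT (-1.66, adjusted p = 0.00033) and 7.55-fold in KO cells (-2.92, adjusted p = 1.7e-05), and the interaction was -1.26 (SE 0.24, adjusted p = 0.0098).

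*Ccl8*, which encodes the monocyte attractant MCP-2, rose with induction where *Ccl2* fell. It was at 0.265 and 0.317 RPKM in undifferentiated WT, 0.0675 and 0.131 in undifferentiated KO, 0.970 and 0.506 in differentiating WT and 3.62 and 2.96 RPKM in differentiating KO libraries. These stand for about 1 to 5 reads in each undifferentiated library, 20 and 8 in differentiating WT and 56 and 45 in differentiating KO libraries, by the estimated depth. KO cells were 4.45-fold higher after induction (2.07, SE 0.30, adjusted p = 0.0041), and before induction they lay lower without a call (-0.99, adjusted p = 0.052). The latter was called with median centring (-1.01, adjusted p = 0.048) and with quantile normalization (-1.02, adjusted p = 0.048). The change with induction was 1.05 in WT (adjusted p = 0.023) and 4.10 in KO cells (adjusted p = 4.5e-05), and the interaction of 3.05 (SE 0.43, adjusted p = 0.0036) was the largest of the members. The WT call was lost without undifferentiated WT replicate 1 (0.95), undifferentiated WT replicate 2 (1.14, adjusted p = 0.067) or differentiating WT replicate 1 (0.64), and when only the WT libraries were fitted (adjusted p = 0.064). Of 11 leukocyte markers tested in differentiating cells, 6 were called lower in KO cells, where 1.95% of all genes were. *Cd14* was higher by the adjusted p alone (0.46, adjusted p = 0.020). The part of the leukocyte markers in the result on *Ccl8* was not tested. The other members of this class, *Ccl11*, *Ccl12* and *Ccl24*, had a mean under 0.1 RPKM. *Ccl12* was above 0 in both undifferentiated WT libraries (0.123 and 0.176 RPKM) and in differentiating WT replicate 2 (0.117 RPKM), and was listed at 0 in the 4 KO libraries, where 3 reads would give 0.134 to 0.188 RPKM over all libraries.

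Among the macrophage inflammatory CC ligands, *Ccl9* and *Ccl6* are neighbours on chr11 and moved in opposite directions with induction. *Ccl9*, an attractant of myeloid cells and osteoclast precursors, was at 13.2 and 14.2 RPKM in undifferentiated WT, 10.0 and 10.8 in undifferentiated KO, 6.26 and 7.26 in differentiating WT and 4.80 and 4.38 RPKM in differentiating KO libraries. *Ccl6*, another attractant of myeloid cells, was at 0.347 and 0.300, 0.151 and 0.114, 1.58 and 1.58, and 0.660 and 0.786 RPKM in the same order of groups. Both were lower in KO than in WT libraries in both states without overlap. *Ccl6* differed by -0.86 (adjusted p = 0.0067) before and -1.03 (adjusted p = 0.0030, called) after induction. *Ccl9* differed by -0.39 (adjusted p = 0.021) and -0.55 (adjusted p = 0.0058). With induction, *Ccl9* fell in WT and KO cells (-1.01 and -1.17, adjusted p = 0.00017 and 5.2e-05), and *Ccl6* rose by 1.99 and 1.82 (adjusted p = 5.9e-05 and 4.8e-05). The call of *Ccl6* between genotypes was lost without differentiating KO replicate 1 (-0.92), and that of *Ccl9* in WT without undifferentiated WT replicate 2 (-0.96) or differentiating WT replicate 1 (-0.90).

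Many of the leukocyte markers also differed between genotypes. Of 11 markers tested, 5 were called lower in undifferentiated KO cells (*Adgre1*, *C1qa*, *C1qb*, *C1qc* and *Lyz2*) and 6 in differentiating KO cells (these and *Itgam*), and none was called higher. Over all genes tested, 1.09% and 1.95% were called lower. By the adjusted p alone, 5 were lower and 2 higher in undifferentiated KO cells, and 8 were lower and 1 higher in differentiating KO cells. Over all genes, 32.2% and 40.7% passed in either direction. The higher markers were *Cd14*, a receptor of monocytes (0.78 and 0.46, adjusted p = 0.0046 and 0.020), and, before induction, *Csf1r*, the receptor of a macrophage growth factor (0.34, adjusted p = 0.032). *Lyz2*, a lysozyme of myeloid cells, differed by -1.96 (adjusted p = 0.00019) and -1.76 (adjusted p = 0.00038). With induction 5 markers were called higher in WT cells, and 4 higher and 1 lower in KO cells. Over all genes, 9.69% rose in WT cells, and 13.0% rose and 9.87% fell in KO cells. The lower marker was *Csf1r* (-2.06 in KO and -0.97 in WT cells). The part of these markers in the results on *Ccl6* and *Ccl9* was not tested. *Ccl5* was at 0.179 to 0.555 RPKM without a call, and *Ccl3* and *Ccl4* were under the minimum.

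The remaining CC ligands act mainly on lymphocytes and dendritic cells, and most were low. *Ccl17*, a ligand of the receptor Ccr4, was at 2.10 and 2.14 RPKM in undifferentiated WT, 1.60 and 1.56 in undifferentiated KO, 0 and 0.313 in differentiating WT and 0.192 and 0.0651 RPKM in differentiating KO libraries. It fell with induction in both genotypes (-3.45 and -2.94, SE 0.64 each, adjusted p = 0.0041 and 0.0065), from 24 to 34 reads to 0 to 5 reads by the estimated depth. The KO call was lost with 0.01 in place of 0.1 added (-3.69, adjusted p = 0.064). *Ccl19*, a ligand of the receptor Ccr7, was at 0.0788 and 0 RPKM in undifferentiated WT, 0.0803 and 0.117 in undifferentiated KO, 0.433 and 0.489 in differentiating WT and 0.923 and 0.664 RPKM in differentiating KO libraries. It rose with induction in both genotypes (2.07 and 2.16, SE 0.31 each, adjusted p = 0.0016 and 0.00095), from 0 to 3 reads to 14 to 26 reads. Neither ligand was called between genotypes, and their intervals there were wide (*Ccl17* before induction, -1.98 to 1.18).

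*Ccl25*, a thymus-expressed ligand of Ccr9, was at 2.14 and 2.40 RPKM in undifferentiated WT, 1.80 and 1.90 in undifferentiated KO, 1.53 and 1.48 in differentiating WT and 1.13 and 0.928 RPKM in differentiating KO libraries. Its difference after induction was -0.51 (adjusted p = 0.013), inside the fold limit. Exons of *Ccl25* overlap those of *Elavl1* on the other strand, which was higher at 8.87 to 18.7 RPKM. *Ccl27a*, a ligand of Ccr10, was at 3.10 and 4.11 RPKM in undifferentiated WT, 2.18 and 3.12 in undifferentiated KO, 3.01 and 4.06 in differentiating WT and 5.43 and 5.44 RPKM in differentiating KO libraries. It rose in KO cells (1.03, adjusted p = 0.0062) and had -0.03 in WT cells, with an interaction of 1.06 (SE 0.32, adjusted p = 0.041). This interaction was lost without any 1 of 7 libraries (all but undifferentiated KO replicate 2, adjusted p = 0.052 to 0.12), and the rise in KO cells without undifferentiated KO replicate 1 (0.78). Exons of *Ccl27a* overlap those of *Il11ra1* on the other strand (12.8 to 35.2 RPKM), and the reads were aligned by strand. *Ccl27b* is a near-identical copy of *Ccl27a*, so the level of *Ccl27a* is uncertain.

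*Cx3cl1*, which encodes fractalkine, a membrane-bound ligand that holds monocytes to a cell surface, fell in both genotypes. It was at 4.40 and 4.17 RPKM in undifferentiated WT, 4.44 and 4.79 in undifferentiated KO, 1.47 and 1.71 in differentiating WT and 1.79 and 2.04 RPKM in differentiating KO libraries. The change was -1.38 in WT (adjusted p = 6.7e-05) and -1.23 in KO cells (adjusted p = 6.2e-05), and the genotype differences were 0.10 (95% interval -0.14 to 0.34) and 0.25 (0.01 to 0.49, adjusted p = 0.086). *Xcl1*, the XC ligand, was listed at 0 in all libraries.

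Of the receptors that signal, *Cxcr6* had the highest level in undifferentiated cells. *Cxcr6*, the receptor of the ligand encoded by *Cxcl16*, was at 12.7 and 13.4 RPKM in undifferentiated WT, 16.1 and 15.9 in undifferentiated KO, 1.16 and 1.33 in differentiating WT and 0.810 and 0.728 RPKM in differentiating KO libraries. The genotypes did not overlap in either state, and KO cells were 1.23-fold higher before (0.29, adjusted p = 0.036) and 1.62-fold lower after induction (-0.63, adjusted p = 0.0027). *Cxcr6* fell 10.5-fold in WT (-3.29, SE 0.08, adjusted p = 1.5e-06) and 20.8-fold in KO cells (-4.22, SE 0.08, adjusted p = 3.4e-07). The interaction of -0.93 (adjusted p = 0.0023) was inside the fold limit and passed it only without differentiating WT replicate 1 (-1.02). *Cxcr6* lies in an intron of *Fyco1*, on the opposite strand.

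*Cxcr2*, the receptor of the ELR CXC ligands, was at 1.70 to 2.60 RPKM in all 8 libraries and had no call, with 2.53 and 2.60 RPKM in undifferentiated KO and 1.98 and 1.70 RPKM in undifferentiated WT libraries (0.46, adjusted p = 0.034). *Xcr1*, a receptor known from dendritic cells, was at 0.684 and 0.701 RPKM in undifferentiated WT, 0.770 and 0.772 in undifferentiated KO, 0.217 and 0.219 in differentiating WT and 0.187 and 0.270 RPKM in differentiating KO libraries. It fell with induction in both genotypes (-1.32 and -1.42, adjusted p = 0.00042 and 0.00019) and its ligand gene *Xcl1* was listed at 0. *Cxcr6*, *Xcr1* and *Ccr9* lie in a row of receptor genes on chr9, where *Ccr1*, *Ccr2* and *Ccr3* were under the minimum. *Cx3cr1* was at 0.190 to 0.450 RPKM. *Ccr2*, the receptor of the ligands encoded by *Ccl2* and *Ccl7*, was at 0 to 0.0176 RPKM.

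The atypical receptor *Ackr3* had a higher level than *Cxcr6* in each group, and *Ackr4* had one in each group but undifferentiated KO MSCs. *Ackr3*, which takes up the ligand encoded by *Cxcl12*, was at 29.8 and 29.8 RPKM in undifferentiated WT, 45.7 and 46.3 in undifferentiated KO, 36.0 and 36.9 in differentiating WT and 49.0 and 46.8 RPKM in differentiating KO libraries. KO libraries were above WT libraries in both states, by 1.54-fold (0.63, SE 0.03, adjusted p = 0.00031) and 1.31-fold (0.39, SE 0.03, adjusted p = 0.00096), inside the fold limit. *Ackr4*, which takes up the ligands encoded by *Ccl19*, *Ccl21* genes and *Ccl25*, differed the other way. It was at 29.1 and 30.9 RPKM in undifferentiated WT, 9.63 and 10.6 in undifferentiated KO, 44.7 and 45.7 in differentiating WT and 28.3 and 25.8 RPKM in differentiating KO libraries.

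KO cells had 2.96-fold less *Ackr4* RNA before induction (-1.56, SE 0.07, adjusted p = 0.00016, called) and 1.67-fold less after it (-0.74, SE 0.07, adjusted p = 0.0012). *Ackr4* rose 2.67-fold in KO cells (1.41, adjusted p = 7.2e-06, called) and was 1.51-fold higher in WT cells (0.59, adjusted p = 0.00045), and the interaction was 0.81 (adjusted p = 0.0020). The call before induction held under each alternative tried, with -1.63 to -1.49 when a library was left out. Exons of *Ackr4* overlap those of *Acad11* on the other strand, which was at 9.28 to 16.5 RPKM, and the reads were aligned by strand. *Ackr2*, which takes up inflammatory CC ligands such as those of *Ccl2*, was at 0.0226 and 0.00722 RPKM in undifferentiated WT, 0.00768 and 0 in undifferentiated KO, 0.105 and 0.0648 in differentiating WT and 0.287 and 0.352 RPKM in differentiating KO libraries. Its mean over all libraries was 0.106 RPKM, and each group but differentiating KO had a mean of at most 0.0849 RPKM. *Ackr2* thus reached the minimum of 0.1 for the test only through the group in which it was then called higher. *Ackr2* was called higher in differentiating KO than WT cells (1.19, SE 0.22, adjusted p = 0.0086) and rose in KO cells (2.01, adjusted p = 0.00025), with an interaction of 1.33 (adjusted p = 0.018). The undifferentiated values of *Ackr2* stand for 0 to 3 reads, and its 3 calls were lost when 1 was added in place of 0.1. With 0.01 added, the genotype call (1.82, adjusted p = 0.080) and the interaction (2.66, adjusted p = 0.076) were lost too.

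The other 39 members had neither a call nor a group mean of 1 RPKM. Of these, 9 were listed at 0 in all libraries: *Ccl1*, *Ccl21a*, *Ccl21b*, *Ccl21c*, *Ccl26*, *Ccl27b*, *Ccr6*, *Ccr8* and *Xcl1*. The 3 *Ccl21* genes are near-identical copies, and reads that map to several places may be split or dropped. The other 30 reached at most 0.555 RPKM (*Ccl5*), 9 of them were tested, and none was called. *Ccl28*, which acts on Ccr10, was at 0.223 and 0.225 RPKM in differentiating WT and 0.438 and 0.519 RPKM in differentiating KO libraries, a difference of 0.83 (adjusted p = 0.010) inside the fold limit. *Cxcl13*, a B cell attractant under the minimum for the test, was listed at 0 in the 4 undifferentiated libraries, at 0.0155 and 0.0203 RPKM in differentiating WT and at 0.166 and 0.295 RPKM in differentiating KO libraries. *Cxcr4*, the signalling receptor of the *Cxcl12* ligand, was at 0.114 and 0.206 RPKM in undifferentiated WT, 0.0643 and 0.150 in undifferentiated KO and at most 0.0123 RPKM in the 4 differentiating libraries. *Ccl28*, *Cxcl13* and *Cxcr4* were chosen for mention after their values were seen.

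Genes around the chemokine pathway were counted as lists. Over all genes tested, 14.3% were called with induction in WT and 22.9% in KO cells. Between genotypes, 1.7% were called in undifferentiated and 3.3% in differentiating cells. Of 12 tested genes that carry the signal of the receptors (G proteins, PI3K, Rac and partners), 0 were called between genotypes or with induction in WT cells, and *Elmo1* rose in KO cells (1.23, adjusted p = 0.00030). By the adjusted p alone, 5 of the 12 passed between undifferentiated genotypes (3 higher and 2 lower in KO) and 8 between differentiating ones (1 higher and 7 lower). Over all genes, 32.2% and 40.7% passed. Of 7 tested genes that switch receptors off, *Arrb1* and *Rgs2* rose and *Rgs16* fell in both genotypes, with *Rgs2* at 2.74 in WT and 3.94 in KO cells (interaction 1.20, adjusted p = 0.00084). Of 24 tested genes of inflammatory signalling, 4 rose and 1 fell in WT cells, and 8 rose and 1 fell in KO cells. The gene that fell was *Il6*, an inflammatory cytokine (-3.89 and -3.92, adjusted p = 5.3e-05 and 2.9e-05), and *Nfkbia*, which encodes an inhibitor of NF-kB, rose (1.99 and 2.01, adjusted p = 1.9e-06 and 9.7e-07). Between genotypes 0 of these 24 were called in either state, where 1.7% and 3.3% of all genes were. By the adjusted p alone, 8 passed in undifferentiated cells (4 higher and 4 lower in KO) and 13 in differentiating cells (12 higher and 1 lower). The shares of all genes were again 32.2% and 40.7%. Of 7 genes that glucocorticoids raise, 5 rose in WT and 6 in KO cells, with *Fkbp5* at 4.92 and 4.82 and *Tsc22d3* at 3.65 and 4.39, and 0 were called between genotypes. By the adjusted p alone, 2 of the 7 passed between undifferentiated genotypes (1 higher and 1 lower in KO). Between differentiating genotypes 4 passed, all higher in KO. For the interaction 4 passed, all with the more positive response in KO cells. Over all genes, 32.2%, 40.7% and 39.4% passed. These counts are of a chosen list each and were not tested against other genes.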

How the data were processed

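RNA was measured in 8 libraries of mouse MSCs. Per the methods of the study, the authors removed ribosomal RNA, made strand-specific libraries, aligned single-end reads to mm10 with TopHat2 (2.1.0) and the iGenomes annotation, and ran Cuffdiff (Cufflinks 2.2.1, versions from the submitters' processing notes). The deposited values are RPKM, 1 column for each library, and the library scaling of Cuffdiff is not given in the sources used here.

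From there, log2(RPKM + 0.1) was fitted with limma 3.58.1 in R 4.3.3, with a mean for each of 4 groups and a trend of the variance on expression, for the 15342 genes whose mean reached 0.1 RPKM. P-values were two-sided and adjusted over all tested genes with the Benjamini-Hochberg method. A called gene had a log2 difference above 1 or below -1 and an adjusted p under 0.05. On simulated data with 200 changed genes among 15342, 197 were recovered with 4 false calls. All changes put into the simulated data were well beyond the limit of 1 and lay in genes of higher level. Recovery of differences near this limit, or of genes at low values, was therefore not tested.

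RPKM gives no depth directly. Steps between low values of genes with a single transcript gave 48.0 to 67.0 M scaled reads, after shortening each transcript by 204 nt. Among the 3876 lowest values used, 65.7% lay within 0.05 read of a whole read, against 10% by chance, too few for a count test. Floors of 3 reads cover counting error only.

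Members with a mean of at least 1 RPKM in a group, or with a call, are described one by one (21 members). The members and lists were chosen with earlier results of these data known. Positions are from GENCODE vM21, and promoters from RefSeq. Alternatives covered the pseudocount, the minimum, the scaling, the variance trend, the replicate number, the fold limit, the libraries fitted and each library left out. Python 3.11.15 with pandas 2.3.3 and matplotlib 3.10.9 made the summaries and figures. Values of some single genes are not reported here.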

Additional observations from a re-analysis of the deposited data

Results flagged for a closer look

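For 10 of the 30 tested members the genotype difference itself changed between undifferentiated and differentiating MSCs by the interaction test (limma, Benjamini-Hochberg adjustment over all genes, adjusted p under 0.05), where 39.4% of all genes tested passed. The members thus passed no more often than genes in general. Values are the KO to WT difference after induction minus that before it, on the log2(RPKM + 0.1) scale. The difference moved down for *Cxcl5* (-1.28, adjusted p = 0.00038), *Ccl2* (-1.26, adjusted p = 0.0098), *Cxcl3* (-0.97, adjusted p = 0.017), *Cxcr6* (-0.93, adjusted p = 0.0023), *Ccl7* (-0.48, adjusted p = 0.019) and *Ackr3* (-0.23, adjusted p = 0.011). It moved up for *Ccl8* (3.05, adjusted p = 0.0036), *Ackr2* (1.33, adjusted p = 0.018), *Ccl27a* (1.06, adjusted p = 0.041) and *Ackr4* (0.81, adjusted p = 0.0020). *Ackr2* reached the minimum for the test only through the differentiating KO libraries. In *Ccl2* and *Cxcr6*, KO libraries lay above WT libraries before induction and below them after it, and in *Ccl8* the reverse held. With 2 libraries per group, a library that stands apart within its group could not be looked for.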

How the results depend on the processing

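With 2 libraries per group, RPKM in place of counts and a pooled spread, calls near the fold limit and at low values are the least firm. Of 41 called values, 22 held under every alternative, 19 lost the call under at least 1, and none reversed. Leaving out a library gave 3 to 3 called members between genotypes in each state, 10 to 13 with induction in WT, 16 to 19 in KO and 4 to 6 for the interaction. An equal count did not always mean the same members. Without differentiating KO replicate 1, *Ccl6* (-0.92) lost its call between differentiating genotypes and *Ccl2* (-1.02) gained one. With a pseudocount of 1, the counts were 2 and 1 between genotypes (undifferentiated and differentiating), 7 in WT, 11 in KO and 3 for the interaction. With a pseudocount of 0.01, 5 members were called in undifferentiated cells. By the adjusted p alone, 10 and 11 members passed between genotypes and 10 for the interaction. Over all genes, the counts of 261, 507, 2198, 3511 and 947 became 99, 234, 1249, 2267 and 479 with a pseudocount of 1, 402 for the first with 0.01, and 4943, 6251, 9882, 11186 and 6048 by the adjusted p alone.

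None of the values that changed sign was called. They were *Ackr3* with induction in KO cells (-0.02, median centring), *Ccl17* between differentiating genotypes (-0.02, pseudocount 1), *Xcr1* there (-0.01, quantile normalization), *Cxcr2* with induction in WT cells (-0.12, quantile normalization), and the interactions of *Ccl19* (-1.09 with pseudocount 0.01, -0.03 with quantile normalization) and *Ccl6* (0.11, pseudocount 0.01). The cause was not tested. Without a library, the sign also changed for the interactions of *Ccl17* (-0.51 to 1.53), *Ccl19* (-0.33 to 0.51), *Cxcl1* (-0.05 to 0.13), *Cxcl14* (-0.09 to 0.12) and *Xcr1* (-0.29 to 0.08). It changed as well for *Ccl17* (-0.91 to 1.13), *Ccl7* (-0.18 to 0.03), *Cxcr2* (-0.17 to 0.15) and *Xcr1* (-0.15 to 0.22) between differentiating genotypes, and for *Ccl27a* with induction in WT cells (-0.24 to 0.18).

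Replicate numbers are shared between groups, but libraries of a number did not deviate together (correlations of -0.092 to 0.03), and the labels do not say that a number marks a shared batch. A fit with the replicate number as a block called 3, 3, 13, 17 and 5 members, the same counts as without it.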

Other observations

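Relatives of the chemokines outside the naming rule and a protease that cleaves chemokines also differed. *Rarres2*, which encodes the attractant chemerin, rose with induction in WT (1.62, adjusted p = 0.0013) and KO cells (3.41, adjusted p = 3.1e-05) and was called higher in differentiating KO than WT cells (1.01, adjusted p = 0.017, limma with Benjamini-Hochberg adjustment). The interaction was 1.79 (adjusted p = 0.0082). *Pf4* was called lower in KO cells in both states (-1.44 and -1.71). After induction it was at 0.388 and 0.809 RPKM in WT and 0.103 and 0.105 RPKM in KO libraries. *Mif*, a cytokine that binds chemokine receptors, fell with induction in both genotypes (-1.33 and -1.48), as did *Cklf* (-1.02 and -1.81). *Dpp4*, which encodes a protease that trims the ends of chemokines, was low in all libraries. It was at 0.0118 and 0.0378 RPKM in undifferentiated WT and 0.0721 and 0.0693 RPKM in undifferentiated KO libraries. After induction it was at 0.0631 and 0.0563 RPKM in WT and 0.287 and 0.295 RPKM in KO libraries. *Dpp4* reached the minimum of 0.1 RPKM for the test only through the differentiating KO libraries, as the other groups had means of 0.0248 to 0.0707 RPKM. *Dpp4* was called higher in differentiating KO than WT cells (1.29, adjusted p = 0.0042), the group through which it was tested. It rose with induction in KO cells (1.20, adjusted p = 0.0015), with 0.36 in WT cells (adjusted p = 0.14). The difference between these responses of *Dpp4* was 0.83 (adjusted p = 0.053).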
